A study of Homo sapiens with 8 samples.

Results

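Versipelostatin and phenformin were compared directly in HT1080 cells under 2-deoxyglucose, on the array of cells given 2DG with versipelostatin (2DG+VST) and the array of cells given 2DG with phenformin (2DG+Phen). These are 2 of the 8 arrays in the series. HT1080 is an established human fibrosarcoma cell line, 2-deoxyglucose (2DG) is a glucose analog that blocks glycolysis, versipelostatin (VST) is a macrocyclic microbial product, and phenformin (Phen) is a biguanide that inhibits complex I of the mitochondrial respiratory chain. All cells were harvested after 18 h, with 2DG at 10 mM, VST at 10 µM and Phen at 100 µM, so the molar doses of the compounds differed. The same doses of VST and Phen without 2DG, 2DG alone and untreated control cells were on 4 further arrays, and the other 2 arrays, with compound C, were not used for the differences. Each difference is the log2 signal of 2DG+VST minus that of 2DG+Phen, taken over the 15503 of 54613 probe sets that reached a log2 signal of 6 on at least 1 of the 8 arrays. These probe sets named 8429 genes, each represented by its probe set of highest mean signal. There was 1 array per condition, so no difference carries an error or a test, and every statement below is about these arrays.

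The endoplasmic reticulum (ER) answers a build-up of misfolded glycoproteins with the unfolded protein response (UPR). The sensors PERK, ATF6 and IRE1 act through the transcription factors ATF4, cleaved ATF6 and spliced XBP1, which raise the transcription of chaperones, degradation factors and amino acid genes. 2DG disturbs protein glycosylation as well as glycolysis and is a standard inducer of this response, and both VST and biguanides are known as inhibitors of it in glucose-deprived tumor cells.

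The pair of profiles was close over the array as a whole. The root mean square difference between 2DG+VST and 2DG+Phen was 0.50 on the log2 scale, against 1.18 between 2DG with compound C and 2DG+VST and 1.12 between 2DG with compound C and 2DG+Phen, and 81.6% of the expressed probe sets lay within 1.5-fold of each other. At least 2-fold higher in 2DG+VST were 299 probe sets (1.93%), and at least 2-fold lower were 479 (3.09%). By gene, 99 of 8429 were at least 2-fold higher (1.17%) and 251 were at least 2-fold lower (2.98%), with a median difference over all genes of 0.10. Of the 8429 genes 5153 had a difference above 0 and 3272 below 0, so a majority above 0 was the background. The probe sets nearest the expression limit reached 6.0001 just inside and 5.99995 just outside it, with differences of 0.21 and -0.78. A probe set could also pass the limit on 1 of the compared arrays alone, which favours those that are high there.

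The arrays themselves differed in their spiked controls. Over 27 probe sets of spiked poly-A RNAs the median signal was 6.85 in 2DG+VST and 6.59 in 2DG+Phen, and scaling on these controls moved the median of all genes by -0.26. Under that scaling 129 probe sets were at least 2-fold higher and 920 at least 2-fold lower, so the lower share of the separated probe sets was 87.7% in place of 61.6%. The hybridization controls were at 9.25 in 2DG+VST and 9.29 in 2DG+Phen, and the 3′ to 5′ difference of ACTB was 0.98 and 1.08 in the same order. Of 12 fibrosarcoma and mesenchymal markers, 8 reached 6 on each of the 2 arrays, with summed log2 signals of 92.1 in 2DG+VST and 92.5 in 2DG+Phen, and VIM, the mesenchymal filament protein, stood at 13.44 and 13.41. Of the epithelial and endothelial markers, none of 12 and none of 8 reached 6, and of 7 blood cell markers only LCP1 did, at 7.09 in 2DG+VST and 7.33 in 2DG+Phen. In RNA from whole cultures, fewer cells expressing a gene and less of its RNA per cell cannot be told apart.

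**Figure D1:**
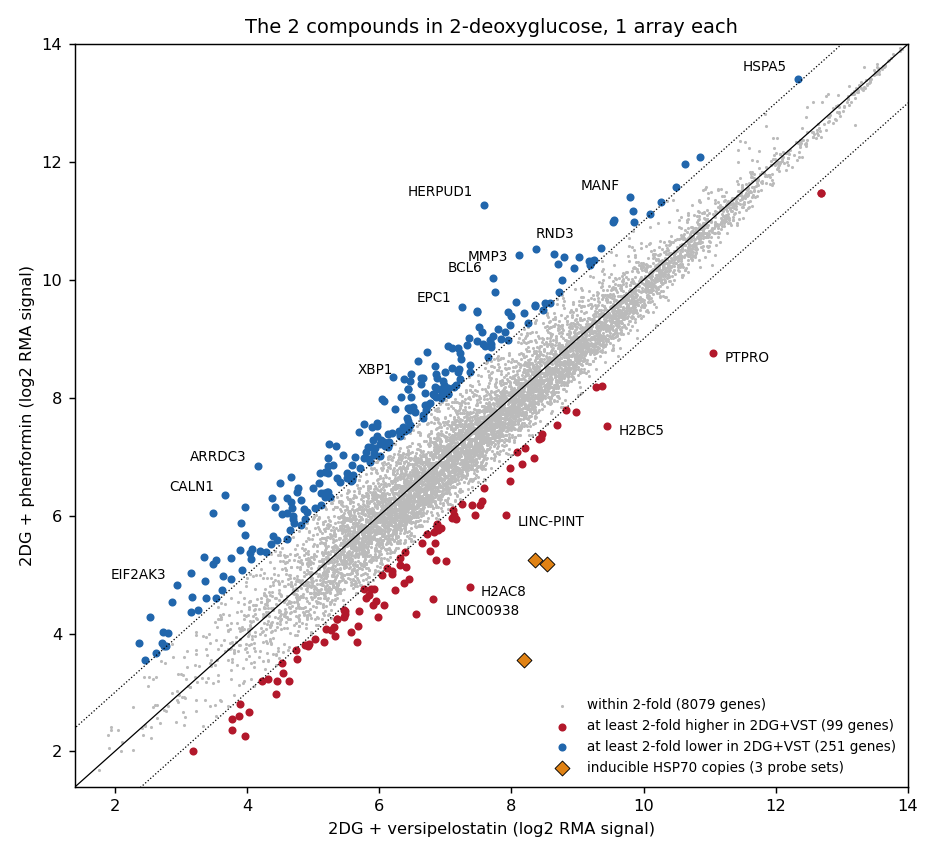
Log2 RMA signal of each expressed gene in 2DG + versipelostatin (x axis) and 2DG + phenformin (y axis), 1 array each, with dotted lines at 2-fold. The 251 genes at least 2-fold lower in 2DG+VST lie above the upper line, with HERPUD1 farthest from the diagonal, and the 99 higher genes lie below the lower line together with 3 probe sets of the inducible HSP70 copies.

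HERPUD1 stood apart from all other genes. It encodes an ER membrane protein of the ER-associated degradation machinery and is a classic UPR target. Its signal was 7.58 in 2DG+VST and 11.26 in 2DG+Phen, against 10.92 in 2DG alone and 9.16 in control cells, a difference of -3.68 or 12.8-fold. The VST array was thus below even the control array, whereas the Phen array was at the level of 2DG alone. Without 2DG the order was reversed and the gap small, with 10.06 in VST, 9.54 in Phen and 9.16 in control cells.

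Among the 15 UPR sensors and transcription factors with a measured gene, 3 were at least 2-fold lower in 2DG+VST and none was higher. Over all genes 2.98% were lower and 1.17% higher. XBP1, the transcription factor downstream of IRE1, was at 6.37 in 2DG+VST and 8.32 in 2DG+Phen, against 7.94 in 2DG alone and 6.91 in control cells, and its signal was not divided by splice form. EIF2AK3, which encodes PERK, was at 2.94 in 2DG+VST and 4.83 in 2DG+Phen, against 6.86 in 2DG alone and 6.37 in control cells. The VST value lay under the median of its array (3.23), taken here as background, so the difference is -1.60 or lower. DDIT3, which encodes the pro-apoptotic factor CHOP, was at 8.72 in 2DG+VST and 9.80 in 2DG+Phen, against 8.83 in 2DG alone and 6.33 in control cells.

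The other sensors and factors were within 2-fold on their brightest probe sets. ATF4 was at 11.64 in 2DG+VST and 11.84 in 2DG+Phen, and ERN1, which encodes IRE1, was at 4.59 and 5.07 in the same order. A second probe set of ERN1 was at 6.07 in 2DG+VST and 4.94 in 2DG+Phen, more than 2-fold apart in the opposite direction. It reached the limit of 6 on the 2DG+VST array only. ATF6 went the other way, with 7.39 in 2DG+VST and 6.79 in 2DG+Phen, against 7.31 in 2DG alone. The median of the 15 genes was 0.13, or -0.13 after poly-A scaling.

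The chaperones and folding enzymes of the ER lumen lay mostly on the lower side of 2DG+VST. Of 25 measured genes 19 had a difference below 0, against 3272 of all 8429 genes. Their median was -0.30 against 0.10 for all genes, 5 were at least 2-fold lower and none was higher. Over all genes 2.98% were at least 2-fold lower and 1.17% higher. The study examined GRP78 and GRP94, and both of their genes were among the 5. HSPA5, the gene of the master chaperone GRP78, was at 12.33 in 2DG+VST and 13.41 in 2DG+Phen, against 12.89 in 2DG alone and 11.19 in control cells. HSP90B1, the gene of GRP94, was at 10.85 in 2DG+VST and 12.09 in 2DG+Phen, against 12.33 in 2DG alone and 10.39 in control cells. A second, dimmer probe set of HSPA5 differed by -0.68, so that the median over its probe sets, -0.88, was inside 2-fold.

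The other 3 were cofactors of these chaperones. MANF, a secreted ER stress protein, was at 9.80 in 2DG+VST and 11.40 in 2DG+Phen, against 11.01 in 2DG alone and 9.76 in control cells. SDF2L1, a partner of the GRP78 system, was at 7.49 in 2DG+VST and 8.97 in 2DG+Phen, against 9.54 in 2DG alone. DNAJC3, the co-chaperone p58IPK, was at 8.51 in 2DG+VST and 9.61 in 2DG+Phen, against 8.50 in control cells. For MANF and DNAJC3 the VST array was near the control array, while the Phen array stood above it.

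Not every gene of the group was separated. The disulfide isomerase PDIA4 was at 9.41 in 2DG+VST and 9.49 in 2DG+Phen, and the lectin chaperone CANX was at 11.46 and 11.43 in the same order, both below their signals in 2DG alone (11.01 and 12.39). Of 21 ER-associated degradation genes HERPUD1 was the single one at least 2-fold apart on its brightest probe set, and their median was -0.03. SEL1L, the scaffold of the HRD1 ubiquitin ligase, was at 6.95 in 2DG+VST and 7.93 in 2DG+Phen on its brightest probe set. Its other probe sets differed by -1.66 and -1.30, so they were more than 2-fold lower in 2DG+VST. None of the 23 translocation genes or 33 COPI and COPII genes was 2-fold apart. Of 29 N-glycosylation genes 1 was, UAP1, the enzyme of the last step to UDP-N-acetylglucosamine, at 10.62 in 2DG+VST and 11.97 in 2DG+Phen.

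**Figure D2:**
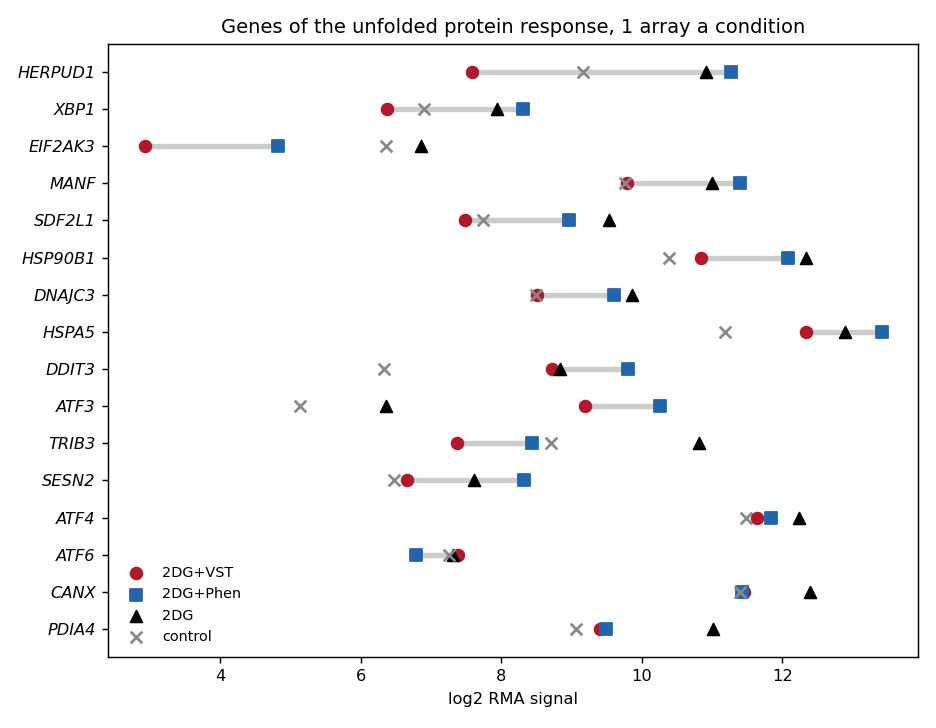
Log2 RMA signal (x axis) of 16 UPR genes (y axis) on the arrays of 2DG+VST, 2DG+Phen, 2DG and control cells, with a grey bar joining the 2 compounds. HERPUD1 has the longest bar, from 7.58 in 2DG+VST to 11.26 in 2DG+Phen. Genes whose VST point lies to the left of the control point include XBP1, SDF2L1, HERPUD1, EIF2AK3 and TRIB3.

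The sequences in front of these genes are shown because the separated ER genes included those with the best known DNA elements of the UPR. The ER stress response element (ERSE) was searched as CCAAT, any 9 bases, then CCACG, and ERSE-II as ATTGG, any 1 base, then CCACG, on both strands of RefSeq promoters (GRCh38.p14) that run from 250 bases before to 50 after each start. Each line gives the sense strand upstream of the start with the match in capitals. The HERPUD1 window is chr16:56932005-56932055 (+ strand), that of SDF2L1 is chr22:21642094-21642144 (+ strand), that of XBP1 is chr22:28800583-28800641 (- strand), that of HSPA5 is chr9:125241371-125241429 (- strand), and that of HSP90B1 is chr12:103930196-103930359 (+ strand). HERPUD1 and SDF2L1 carry ERSE-II, in SDF2L1 on the opposite strand, and the other 3 carry ERSE, with 2 matches on opposite strands in HSP90B1.
HERPUD1: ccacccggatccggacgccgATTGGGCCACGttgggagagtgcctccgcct
SDF2L1: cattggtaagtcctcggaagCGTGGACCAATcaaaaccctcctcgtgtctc
XBP1: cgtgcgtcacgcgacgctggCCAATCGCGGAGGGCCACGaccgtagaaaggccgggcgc
HSPA5: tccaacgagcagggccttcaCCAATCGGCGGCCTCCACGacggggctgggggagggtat
HSP90B1: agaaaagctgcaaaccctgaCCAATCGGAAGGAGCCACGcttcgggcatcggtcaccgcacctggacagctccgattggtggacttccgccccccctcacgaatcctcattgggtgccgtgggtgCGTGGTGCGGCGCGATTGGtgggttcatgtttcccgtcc

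ERSE was present in 22 of all 27305 promoters (0.0806%) and in 3 of the 212 promoters matched to genes at least 2-fold lower (1.42%). These 3 are XBP1, HSP90B1 and HSPA5, already known here to be lower, so the share is no separate evidence. Of the 7077 expressed genes with a promoter 10 had ERSE (0.141%). A difference below 0 was found in 8 of these 10, against 3272 of all 8429 genes. The 8 include the same 3 genes, so this count is no separate evidence either. EIF2A (-0.12), SERP1 (-0.11) and TRIM5 (-0.03), also among the 8, were close to no difference. Those other than XBP1, HSP90B1 and HSPA5 were within 2-fold, with CRELD2, a secreted ER stress protein, at -0.48, CALR, the lectin chaperone calreticulin, at -0.30, and CANX at 0.03. A match therefore went with differences from -1.95 to 0.21, and it describes the letters of the window, not binding.

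ERSE-II was present in 15 of all promoters (0.0549%) and in 0.141% of the expressed ones. It was in 2 of 212 lower genes (0.943%), HERPUD1 and SDF2L1, again already known to be lower, and in 1 of 75 higher genes (1.33%). Its 10 expressed genes spanned the widest range, from -3.68 in HERPUD1 to 1.61 in ZNF143-AS1, and HYOU1, the ER chaperone ORP150, was at -0.42. ZNF143-AS1, a non-coding RNA antisense to ZNF143, was at 6.85 in 2DG+VST and 5.24 in 2DG+Phen, whereas ZNF143 itself, a zinc finger transcription factor, was at 7.37 in 2DG+VST and 8.22 in 2DG+Phen. The UPR element TGACGTGG, which holds the complement of CCACG, was in 3 of 212 lower genes (1.42%), against 0.795% of all promoters and 0.961% of the expressed ones. The C/EBP-ATF element TTGCATCA was in 3 of 212 lower genes (1.42%), against 0.923% of all promoters and 0.551% of the expressed ones. The E-box CACGTG was in 26 of 212 lower genes (12.3%) and 5 of 75 higher genes (6.67%), against 7.43% of all promoters and 11.2% of the expressed ones.

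The amino acid branch of the response was taken from a list of ATF4 and CHOP targets. Of 31 ATF4 and CHOP targets 6 were at least 2-fold lower in 2DG+VST, none was higher, and the median was -0.24. The background was 2.98% of all genes lower and 1.17% higher. VLDLR, a lipoprotein receptor, is 1 of the 6 but is known only to be at -0.60 or lower, since its 2DG+VST signal was not above background. SESN2, a stress-induced inhibitor of mTORC1, was at 6.67 in 2DG+VST and 8.33 in 2DG+Phen, against 7.62 in 2DG alone, and both of its probe sets were lower. TRIB3, a pseudokinase induced by CHOP, was at 7.37 in 2DG+VST and 8.44 in 2DG+Phen, against 10.82 in 2DG alone, but its other probe set differed by -0.04. ATF3, a stress-induced factor, was at 9.19 in 2DG+VST and 10.26 in 2DG+Phen, both above 6.36 in 2DG alone, and its median over probe sets, -0.83, was inside 2-fold.

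The metabolic members of the same list were near each other. ASNS, asparagine synthetase, was at 8.99 in 2DG+VST and 9.28 in 2DG+Phen, against 11.37 in 2DG alone. SLC7A11, the cystine transporter, was at 6.43 in 2DG+VST and 6.57 in 2DG+Phen, against 9.88 in 2DG alone. None of 16 amino acid transporters or 17 cytosolic tRNA synthetases was 2-fold apart. GDF15, a secreted stress cytokine, stood on the other side, at 11.10 in 2DG+VST and 10.58 in 2DG+Phen.

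The same list looked different without 2DG. There, 12 of the 31 ATF4 and CHOP targets were at least 2-fold higher in VST than in Phen and none was lower, against a background of 1.54% of genes higher and 2.42% lower, and the median was 0.80. DDIT3 was at 9.30 in VST and 7.53 in Phen, against 6.33 in control cells, so its difference was 1.77 in normal growth and -1.08 in 2DG. TRIB3 was at 11 in VST and 9.5 in Phen, against 8.71 in control cells, a difference of 1.5 in normal growth and -1.07 in 2DG.

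The separated genes lay on different sides of 2DG alone. Both differences from 2DG use the same 2DG array, so they are given as positions only. Of the 251 genes lower in 2DG+VST, 87 (34.7%) were at least 2-fold below 2DG alone with VST and within 2-fold of it with Phen, as HERPUD1 was. A further 60 (23.9%) were at least 2-fold above 2DG alone with Phen and within 2-fold with VST, as BCL6 was on its brightest probe set. In 43 both arrays lay below 2DG alone, in 17 both lay above and in 44 both lay within. Of the 99 genes higher in 2DG+VST, 40 (40.4%) lay below 2DG alone on both arrays and 30 (30.3%) lay below it with Phen only.

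The genes were also divided by their response to 2DG itself. In the 258 genes whose 2DG signal exceeded the control signal by 2-fold or more, 34 (13.2%) were at least 2-fold lower in 2DG+VST than in 2DG+Phen and 5 were higher, with a median of -0.10. In the 160 genes whose 2DG signal was 2-fold or more under the control signal, 2 were lower and 7 (4.38%) were higher, with a median of 0.29. Of the 8011 genes in between, 215 (2.68%) were lower and 87 were higher. These counts use 4 separate arrays, and the shares were not tested against each other.

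The largest difference of all was in the cytosolic heat shock genes. The inducible HSP70 genes are cytosolic chaperones under the heat shock factor HSF1, and 3 probe sets are annotated to more than 1 of their near-identical copies, so no single gene is named and they stand outside the 8429 genes. They were singled out after their values were seen. The probe set with the widest gap was at 8.19 in 2DG+VST and 3.54 in 2DG+Phen, against 6.39 in 2DG alone and 8.32 in control cells, a difference of 4.65 or 25.1-fold. The second was at 8.54 in 2DG+VST and 5.19 in 2DG+Phen, against 7.24 in 2DG alone, and the third was at 8.36 in 2DG+VST and 5.24 in 2DG+Phen, against 7.08 in 2DG alone. The VST array was close to the control level and the Phen array far below it.

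Without 2DG all 3 probe sets lay the other way round. The first was at 5.22 in VST and 8.72 in Phen, against 8.32 in control cells, the second was at 5.71 in VST and 8.76 in Phen, and the third was at 5.87 in VST and 8.98 in Phen. The differences were -3.50, -3.06 and -3.11. The 18 other cytosolic heat shock genes that could be named were all within 2-fold in 2DG, from -0.39 to 0.47.

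Histone genes also lay mostly on the higher side of 2DG+VST. Of 12 measured genes 11 had a difference above 0, against 5153 of all 8429 genes. The median was 0.55 (0.29 with scaling on the poly-A controls), and 2 were at least 2-fold higher, against 1.17% of all genes. H2AC8, a replication-dependent H2A gene, was at 7.37 in 2DG+VST and 4.78 in 2DG+Phen, against 3.12 in 2DG alone and 2.90 in control cells, the largest difference on the higher side among genes (2.58). H2BC5 was at 9.45 in 2DG+VST and 7.51 in 2DG+Phen, against 6.87 in 2DG alone. Its other probe set differed by 0.39, at 5.11 and 4.72 in the same order, against 6.24 in 2DG alone. A further 9 probe sets are annotated to several histone copies, with differences from -0.25 to 2.55, and 4 of them were at least 2-fold higher. The probe set at 2.55 reached the limit of 6 on the 2DG+VST array only, so the limit itself favoured a higher value there. The next, at 2.42, was below 6 on both compared arrays. Its 2DG+Phen signal, 2.71, was not above background, so its difference is only a bound. In normal growth the median of the 12 genes was -0.24.

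Few replication and mitosis genes were 2-fold apart. Of 39 replication genes 30 had a difference above 0 and none was 2-fold apart, and of 38 mitosis genes 32 had a difference above 0 and 1 was 2-fold apart, with medians of 0.17 and 0.20 that became -0.09 and -0.06 with scaling on the poly-A controls. Over all genes 5153 of 8429 had a difference above 0. The single mitosis gene was CDC25C, the phosphatase that activates CDK1, at 5.19 in 2DG+VST and 4.07 in 2DG+Phen.

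Genes under the ERK pathway and NF-κB included several that were lower in 2DG+VST. The ERK feedback genes had the lowest median of the lists shown in the plot of list members, -0.76, and 5 of 16 were at least 2-fold lower with none higher. Of all genes 2.98% were lower and 1.17% higher. The 5 include DUSP8, at 3.54 in 2DG+VST and 4.60 in 2DG+Phen, which reached the limit of 6 only in 2DG with compound C. The genes named below do not all restrain receptor signalling. SPRY4, an inhibitor of receptor tyrosine kinase signalling, was at 7.57 in 2DG+VST and 8.91 in 2DG+Phen, against 7.78 in 2DG alone. DUSP10, a phosphatase of p38 and JNK, was at 7.72 in 2DG+VST and 9.04 in 2DG+Phen, against 7.15 in 2DG alone. HBEGF, an EGF receptor ligand, was at 8.77 in 2DG+VST and 9.99 in 2DG+Phen, against 7.81 in 2DG alone. On these probe sets the Phen array was the one farther from 2DG alone, but a second probe set of DUSP10 was at 5.50 in 2DG+VST and 7.46 in 2DG+Phen, against 7.32 in 2DG alone, with the VST array the farther one. SPRED2, an inhibitor of RAF activation, was at 6.43 in 2DG+VST and 7.46 in 2DG+Phen, both below 8.86 in 2DG alone.

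Of 16 inflammatory and NF-κB target genes 4 were at least 2-fold lower in 2DG+VST and none higher, the median being -0.41. The shares over all genes were 2.98% lower and 1.17% higher. The 4 include CCL20, at 3.75 in 2DG+VST and 4.93 in 2DG+Phen, which reached the limit of 6 only on the arrays with compound C. TNFAIP3, which encodes the NF-κB inhibitor A20, was at 6.86 in 2DG+VST and 8.41 in 2DG+Phen, against 3.84 in 2DG alone and 3.69 in control cells. A second probe set of TNFAIP3 was at 4.14 in 2DG+VST and 6.59 in 2DG+Phen, against 4.76 in 2DG alone. The chemokine gene CXCL8 was at 9.35 in 2DG+VST and 10.54 in 2DG+Phen, against 7.41 in 2DG alone. CXCL3, a related chemokine, was at 7.91 in 2DG+VST and 9.12 in 2DG+Phen, against 7.54 in 2DG alone. In normal growth CXCL3 was at 10.06 in VST and 5.85 in Phen, against 7.32 in control cells, 18.4-fold apart in the opposite direction.

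The immediate early genes were mixed, with 3 of 22 lower and 1 higher, against 2.98% and 1.17% of all genes. IER3, an early response gene, was at 9.84 in 2DG+VST and 11.17 in 2DG+Phen. EGR1, a zinc finger factor, was just within 2-fold, at 10.36 in 2DG+VST and 11.34 in 2DG+Phen, against 6.04 in 2DG alone. FOS, the AP-1 subunit, was the higher one, at 5.70 in 2DG+VST and 4.38 in 2DG+Phen, against 3.0 in 2DG alone, which is not above background. JUN and MYC differed by -0.02 and 0.01.

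The lowest genes outside these groups had varied roles. BCL6, a transcriptional repressor, was at 7.72 in 2DG+VST and 10.03 in 2DG+Phen, against 6.95 in 2DG alone. A second probe set of BCL6 was at 7.08 in 2DG+VST and 8.29 in 2DG+Phen, both above 4.11 in 2DG alone. EPC1, a subunit of the NuA4 acetyltransferase complex, was at 7.26 in 2DG+VST and 9.53 in 2DG+Phen, against 7.62 in 2DG alone, and its 3 probe sets ranged from -2.66 to -1.91.

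Among the matrix genes 2 proteases were apart. MMP3 (stromelysin-1) was at 8.11 in 2DG+VST and 10.42 in 2DG+Phen, against 7.93 in 2DG alone and 6.05 in control cells. MMP1 (interstitial collagenase) was at 7.76 in 2DG+VST and 9.80 in 2DG+Phen, against 9.46 in 2DG alone and 7.01 in control cells. PLAU, the protease urokinase, lay the other way and within 2-fold, at 9.64 in 2DG+VST and 8.84 in 2DG+Phen. MMP1 and MMP3 were the 2 of 31 matrix, protease and integrin genes at least 2-fold lower, and none of the 31 was higher. The background was 2.98% of all genes lower and 1.17% higher. The median of the 31 was 0.12, or -0.15 with scaling on the poly-A controls.

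In other low genes it was the VST array that stood away from 2DG alone. PAPOLG, a poly(A) polymerase, was at 3.49 in 2DG+VST and 6.05 in 2DG+Phen, against 6.31 in 2DG alone. ARRDC3, an arrestin-related adaptor, was at 4.16 in 2DG+VST and 6.84 in 2DG+Phen, against 6.27 in 2DG alone. In these 2 genes the Phen array stayed within 2-fold of 2DG alone. In CFLAR the Phen array was the one that differed. CFLAR, the caspase-8 inhibitor c-FLIP, was at 6.04 in 2DG+VST and 7.97 in 2DG+Phen, against 6.56 in 2DG alone, and its other probe set was lower as well.

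Of 24 genes of AMPK, LKB1, TSC and mTOR complexes 4 were at least 2-fold lower in 2DG+VST and none higher, the median being -0.18. Over all genes 2.98% were lower and 1.17% higher. FNIP2, a folliculin partner that binds AMPK, was at 3.91 in 2DG+VST and 5.87 in 2DG+Phen, against 7.64 in 2DG alone. Its relative FNIP1 was at 4.50 in 2DG+VST and 6.55 in 2DG+Phen, against 8.45 in 2DG alone, but a second probe set stood at 8.83 in 2DG+VST and 6.69 in 2DG+Phen, against 5.28 in 2DG alone, which is the opposite direction. RICTOR, the scaffold of mTORC2, was at 2.62 in 2DG+VST, under background, and 3.67 in 2DG+Phen, against 6.66 in 2DG alone, so its difference is -0.44 or lower. PRKAA1, the catalytic subunit AMPKα1, was at 6.70 in 2DG+VST and 6.90 in 2DG+Phen, and STK11, which encodes LKB1, was at 5.05 and 4.73 in the same order.

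TGF-β and BMP pathway genes held 3 lower members of 27 and none higher, over a background of 2.98% of all genes lower and 1.17% higher. TGFBR2, the type II TGF-β receptor, was at 7.48 in 2DG+VST and 9.45 in 2DG+Phen, against 10.08 in 2DG alone. Its other probe set was lower in 2DG+VST too, at 6.07 against 7.21 in 2DG+Phen. Both of these values lay above 4.57 in 2DG alone. SMURF1, a ubiquitin ligase for SMAD proteins, was at 4.29 in 2DG+VST and 5.38 in 2DG+Phen, against 6.54 in 2DG alone. Its other probe sets were also lower in 2DG+VST, but there both arrays lay above 2DG alone. They were at 5.26 in 2DG+VST and 6.68 in 2DG+Phen against 4.81, and at 4.41 and 5.73 against 4.19. SKIL, a SMAD co-repressor, was at 3.35 in 2DG+VST and 5.30 in 2DG+Phen, against 7.45 in 2DG alone, but its second probe set differed by 1.84. The BMP receptor genes the study names were within 2-fold, with ACVR1 at 7.34 in 2DG+VST and 8.00 in 2DG+Phen and BMPR1B at 4.21 and 5.09 in the same order.

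Of 12 circadian clock genes 4 were at least 2-fold lower in 2DG+VST, against 2.98% of all genes, with a list median of -0.30. BHLHE40, the clock repressor DEC1, was at 7.95 in 2DG+VST and 9.45 in 2DG+Phen, and without 2DG at 8.56 in VST and 9.70 in Phen. BMAL1, the core clock activator, was at 5.59 in 2DG+VST and 6.86 in 2DG+Phen, and its partner CLOCK was at 4.81 and 5.85 in the same order. RORA, a nuclear receptor of the clock, was at 5.16 in 2DG+VST and 6.39 in 2DG+Phen, and reached the limit of 6 on the 2DG+Phen array only. Over all of their probe sets the median differences of BHLHE40 (-0.97) and CLOCK (-0.62) were inside 2-fold. TCF7L2, the WNT pathway factor, was lower on all of its 6 probe sets, at 7.51 in 2DG+VST and 9.20 in 2DG+Phen for the brightest.

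**Figure D3:**
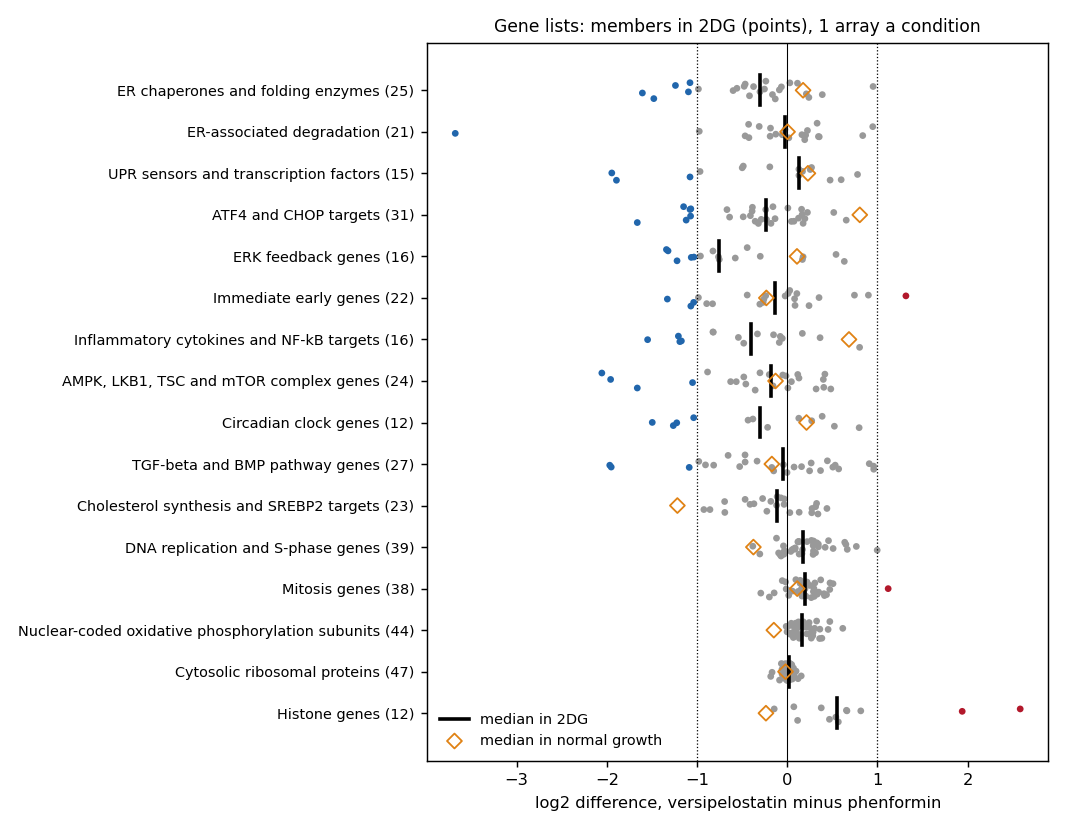
Log2 difference, versipelostatin minus phenformin in 2DG, for each measured member (points, blue at least 2-fold lower, red at least 2-fold higher) of 16 gene lists (y axis, measured genes in parentheses), with the median in 2DG as a black bar and in normal growth as an orange diamond. Medians in 2DG run from -0.76 for the ERK feedback genes to 0.55 for the histone genes, and the ATF4 list has -0.24 in 2DG and 0.80 in normal growth.

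Over the 47 lists, 21 held members at least 2-fold lower only, 4 held members at least 2-fold higher only, 5 held both and 17 held none, over a background of 2.98% of genes lower and 1.17% higher. The median of 25 of these lists changed sign with poly-A scaling, and that of 8 with median centring. Those with none included the 44 nuclear-coded subunits of oxidative phosphorylation, of which 41 had a difference above 0 with a median of 0.16 (-0.10 with poly-A scaling), and the 47 ribosomal proteins, whose median was 0.02 (-0.25 with the same scaling). Of all 8429 genes 5153 had a difference above 0. The cholesterol synthesis genes had a median of -0.11 in 2DG with none of 23 apart. HMGCS1, an early enzyme of that pathway, was at 8.35 in 2DG+VST and 9.28 in 2DG+Phen, against 4.95 in 2DG alone. A second probe set of HMGCS1 was at 6.15 in 2DG+VST and 7.05 in 2DG+Phen, against 6.10 in 2DG alone. In normal growth 13 of the 23 were at least 2-fold lower in VST than in Phen, with a median of -1.22, and HMGCS1 was at 5.48 in VST and 8.35 in Phen.

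Transcripts of mitochondrial DNA were looked at after their values were seen. Of 7 measured genes 3 were at least 2-fold higher in 2DG+VST, against 1.17% of all genes. COX1, a subunit of complex IV, was at 12.68 in 2DG+VST and 11.48 in 2DG+Phen, against 11.69 in 2DG alone. ND2, a subunit of complex I, was at 12.68 in 2DG+VST and 11.46 in 2DG+Phen, against 12.63 in 2DG alone. ND6, the subunit coded on the light strand, was at 7.99 in 2DG+VST and 6.59 in 2DG+Phen, against 6.32 in 2DG alone and 9.16 in control cells. COX2 and COX3 differed by -0.03 and -0.12, ND4 by 0.20 and ATP6 by 0.57, so the group was not moved as a whole. With scaling on the poly-A controls COX1 and ND2 fell inside 2-fold, at 0.94 and 0.96.

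Long non-coding RNAs were frequent among the higher genes, a class also examined with the values known. Of 186 measured lncRNA genes 14 were at least 2-fold higher (7.53%) and 2 were lower, with a median of 0.30 (0.035 with poly-A scaling, where 8 were higher and 4 lower), against 82 higher of 8169 protein-coding genes (1.0%). LINC00115, at 6.56 in 2DG+VST and 4.33 in 2DG+Phen, reached the limit of 6 on the 2DG+VST array only, so the limit itself favoured a higher value. For how many of the 14 this held was not counted. LINC00938 was at 6.81 in 2DG+VST and 4.58 in 2DG+Phen, against 6.45 in 2DG alone. LINC-PINT was at 7.92 in 2DG+VST and 6.01 in 2DG+Phen, against 5.48 in 2DG alone. ASH1L-AS1 was at 7.02 in 2DG+VST and 5.24 in 2DG+Phen, against 5.19 in 2DG alone.

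Among protein-coding genes the highest after H2AC8 was PTPRO, a receptor tyrosine phosphatase, at 11.06 in 2DG+VST and 8.76 in 2DG+Phen, against 8.95 in 2DG alone and 7.84 in control cells. FZD2, a WNT receptor, was at 6.45 in 2DG+VST and 4.93 in 2DG+Phen, against 8.09 in 2DG alone. DGKE, a diacylglycerol kinase, was at 6.07 in 2DG+VST and 4.48 in 2DG+Phen, against 3.53 in 2DG alone. Its signal reached the limit of 6 on the 2DG+VST array only, so the limit itself favoured a higher value there. These 3 genes took different positions against 2DG alone, with FZD2 below it on both arrays and DGKE above it with VST.

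The genes that separated the compounds differed in length. RefSeq gives a median gene span of 14 kb for the 99 higher genes and 52.4 kb for 250 of the 251 lower genes, against 31.4 kb for 8426 of all 8429. The genes were divided by span into 5 groups of equal size. In the group with the shortest spans, up to 10.1 kb, 42 were at least 2-fold higher and 24 lower. In the group with the longest spans, from 90.5 kb, 11 were higher and 77 lower. The share of lower genes increased over the 5 groups through 1.42%, 2.43%, 2.67%, 3.74% and 4.57%. Mean signal also differed along them, from a median of 7.82 in the shortest group to 7.17 in the longest, and its part in the result was not tested. In normal growth the share of lower genes was 2.79% in the shortest and 2.67% in the longest group.

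**Figure D4:**
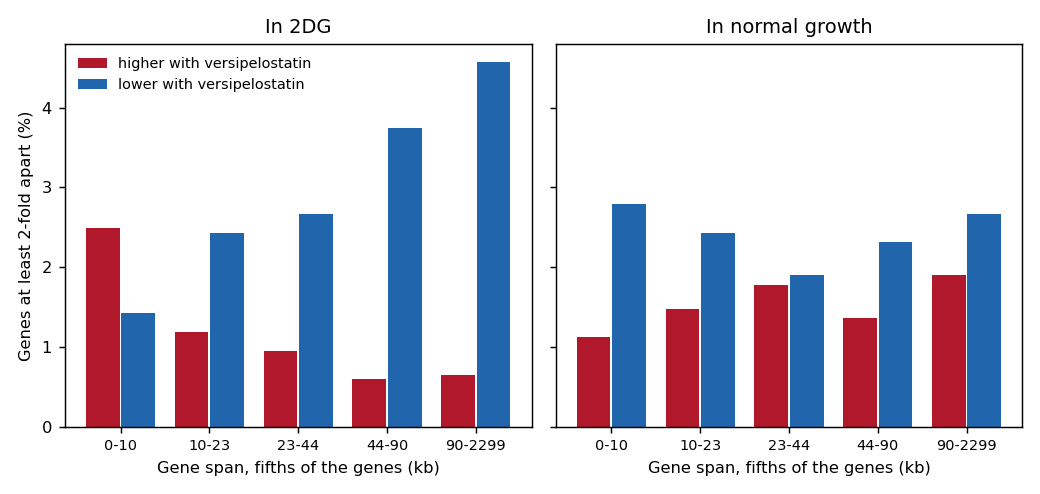
Share of genes at least 2-fold higher (red) or lower (blue) with versipelostatin than with phenformin (y axis, %), in 5 equal groups of the genes by RefSeq gene span (x axis, kb), in 2DG on the left and normal growth on the right. In 2DG the lower share is 1.42% in the shortest and 4.57% in the longest group, while in normal growth it is 2.79% and 2.67%.

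Probe sets of 1 gene did not always go together. Of the 299 probe sets at least 2-fold higher, 48 had no gene in the annotation (16.1%, against 6.21% of all expressed probe sets), and 128 belonged to a gene that another, brighter probe set represented. For 115 of those 128 the brightest probe set of the gene was within 2-fold, and for 7 it was at least 2-fold lower. FNIP1 and SKIL are such genes. Of the 479 lower probe sets 25 (5.22%) had no gene and 195 were not the brightest of their gene, and for 63 of these 195 the brightest was lower as well.

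The difference between the compounds in 2DG was not that of normal growth. Across the 8429 genes Pearson's r between both differences was -0.15, with no array shared between them, and genes are not independent replicates. Of the 251 genes lower in 2DG+VST, 9 were also at least 2-fold lower in VST than in Phen without 2DG (3.59%, against 2.42% of all genes), and 17 were at least 2-fold higher (6.77%, against 1.54%). Of the 99 higher genes 5 were higher and 2 were lower in normal growth.

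Of the 33 genes 2-fold apart in both media, 14 kept their direction. TSC22D3, a glucocorticoid-induced transcription regulator, was at 5.69 in 2DG+VST and 7.41 in 2DG+Phen, and without 2DG at 7.12 in VST and 9.84 in Phen, against 5.45 in control cells. KLF2, a Krüppel-like factor, was at 6.43 in 2DG+VST and 7.47 in 2DG+Phen, and without 2DG at 7.85 in VST and 10.01 in Phen. HES1, a Notch target, was at 7.98 in 2DG+VST and 6.81 in 2DG+Phen, and without 2DG at 6.22 in VST and 4.80 in Phen. EPC1 and its relative EPC2 were both lower with VST in either medium, with EPC2 at -1.78 in 2DG and -1.0 in normal growth.

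The other 19 changed direction, 17 of them lower in 2DG+VST and 2 higher. In 2 of the 19, VLDLR in 2DG (-0.60 or lower) and CCL20 in normal growth (0.93 or higher), a signal was not above background and the bound is under 2-fold. In 8 of the 19 the median over probe sets in 2DG was inside 2-fold. PALM2, also among the 19, reached the limit of 6 on the 2DG+Phen array only. UPP1, uridine phosphorylase, was at 6.99 in 2DG+VST and 8.43 in 2DG+Phen, and without 2DG at 8.03 in VST and 5.97 in Phen. HEXIM1, an inhibitor of the elongation factor P-TEFb, was at 6.20 in 2DG+VST and 5.01 in 2DG+Phen, and without 2DG at 7.71 in VST and 9.12 in Phen.

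**Figure D5:**
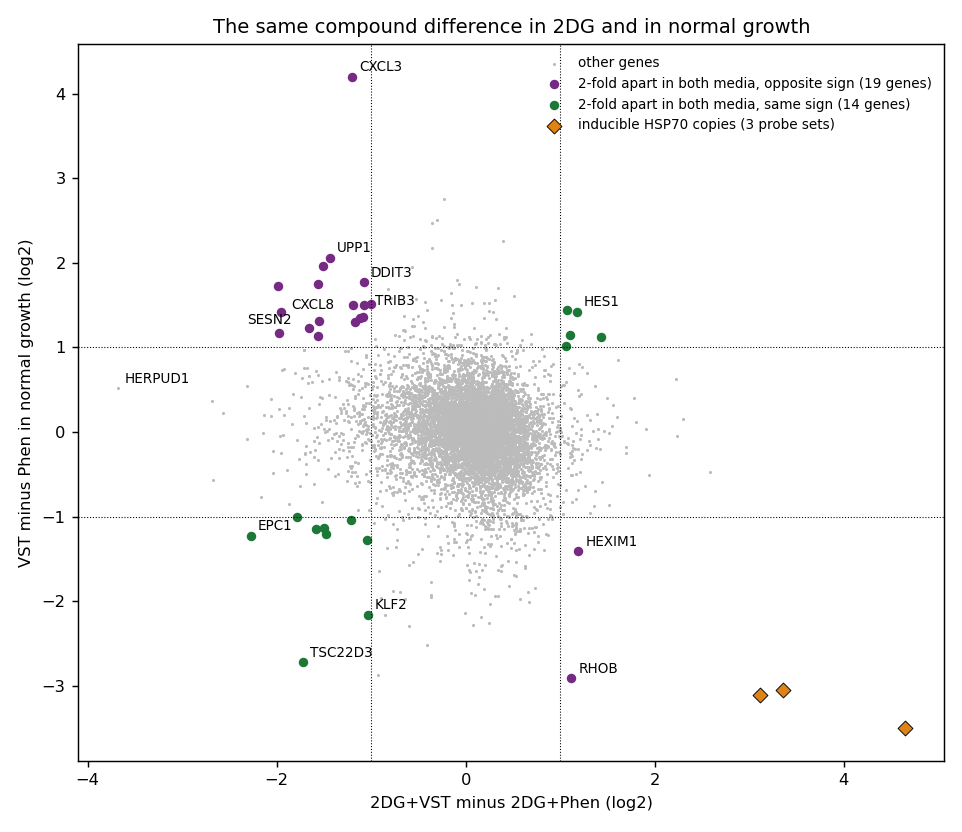
Log2 difference of 2DG+VST minus 2DG+Phen (x axis) and of VST minus Phen in normal growth (y axis) for each gene, with dotted lines at 2-fold. The 19 purple genes changed sign between the media, the 14 green genes kept it, and the 3 HSP70 probe sets lie at the lower right, at 3.11 to 4.65 in 2DG and -3.50 to -3.06 in normal growth.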

How the data were processed

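Total RNA of HT1080 cells was hybridized to Affymetrix U133 Plus 2.0 arrays, 1 array per condition. The deposited values are log2 signals that the authors made with RMA, whose version is not given in the sources used here. RMA corrects background, normalizes the arrays jointly and summarizes probes, so values on different arrays are comparable but the differences of low signals are compressed. Of 54675 probe sets 62 controls were removed. Gene symbols came from GEO's platform annotation, updated by gene identifier: 41097 probe sets had 1 symbol, 1801 several and 11777 none, and a gene was assigned only in the case of 1 symbol. A signal under the median of its array was treated as background and its difference as a bound. Number of arrays, not counting, limits the precision. No test was made.

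Genes were named as the 15 highest and 15 lowest differences among genes with a signal of 6 on 1 of both arrays, the 5 most different members of each list, the genes the study names, and those apart in opposite directions in both media. Genes described outside that rule were chosen after their values were seen. The genes and the 47 lists were chosen with earlier results of these data known. Promoters were matched by symbol to RefSeq (GRCh38.p14) for 7077 genes. Alternatives were other folds and limits, centring, quantile normalization, scaling on 27 poly-A probe sets, removal of shared probe sets, and medians over probe sets. Counting was checked on simulated arrays. Python 3.11.15 with numpy 2.4.6, pandas 2.3.3 and matplotlib 3.10.9 was used.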

Additional observations from a re-analysis of the deposited data

Results flagged for a closer look

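In 19 genes the difference between the compounds, taken on measured signals, was at least 2-fold in 2DG and at least 2-fold the other way in normal growth. The difference between the media was not tested, since each condition had 1 array. Lower in 2DG+VST and higher in VST were PALM2 (-1.98 in 2DG, 1.73 in normal growth), HDAC9 (-1.97 and 1.17), SKIL (-1.95 and 1.42), SESN2 (-1.66 and 1.23), ANKRD1 (-1.57 and 1.13), HECW2 (-1.57 and 1.75), GRB10 (-1.55 and 1.32), MYCT1 (-1.51 and 1.96) and UPP1 (-1.44 and 2.06). So were CXCL3 (-1.21 and 4.20), CXCL8 (-1.19 and 1.5), CCL20 (-1.17 and 1.30), VLDLR (-1.12 and 1.35), MXD1 (-1.09 and 1.36), DDIT3 (-1.08 and 1.77), TRIB3 (-1.07 and 1.5) and EIF5 (-1.0 and 1.51). For VLDLR the 2DG+VST signal was not above background, which leaves its 2DG difference at -0.60 or lower. For CCL20 the Phen signal in normal growth was not above background, which leaves that difference at 0.93 or higher, so neither gene is shown to be 2-fold apart in both media. RHOB (1.12 in 2DG, -2.91 in normal growth) and HEXIM1 (1.19 and -1.41) were higher in 2DG+VST and lower in VST. The 3 probe sets of the inducible HSP70 copies did the same, at 4.65 and -3.50, 3.36 and -3.06, and 3.11 and -3.11.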

How the results depend on the processing

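No paired analysis was possible because there was 1 array per condition. The 299 higher and 479 lower probe sets became 1510 and 1349 at 1.5-fold, 62 and 111 at 3-fold, 129 and 920 with scaling on the poly-A controls, and 99 and 251 with 1 probe set a gene. The higher count was 197 with quantile normalization, 167 with a log2 limit of 7, 568 with no limit and 196 with a limit of 6 on 1 of the 2 arrays compared, and the lower count was 281 without shared probe sets (_x_at and _s_at). In normal growth the 258 higher and 367 lower probe sets became 647 and 201 with poly-A scaling. Of 93 named genes 2-fold apart, 92 stayed so with median centring, 84 with quantile normalization, 82 with poly-A scaling and 73 with the median over probe sets, where CCND2 (-0.037) and FNIP1 (0.044) changed sign. With poly-A scaling RHOB and HEXIM1 fell to 0.85 and 0.93. Of the 19 genes that changed direction between the media, 8 were inside 2-fold in 2DG with the median over probe sets, namely SKIL (-0.055), TRIB3 (-0.56), MXD1 (-0.75), HEXIM1 (0.85), EIF5 (-0.86), HDAC9 (-0.88), GRB10 (-0.89) and RHOB (0.93). The 3 HSP70 probe sets stayed at least 2-fold apart in the same direction with each of the 3 scalings. The causes of these changes were not tested. Signals near background limit EIF2AK3, RICTOR and VLDLR to bounds in 2DG and CCL20 to a bound in normal growth.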
